A study of Mus musculus with 20 samples.

Results

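Mucin type O-glycosylation begins in the Golgi, where polypeptide GalNAc-transferases (the *Galnt* family) attach N-acetylgalactosamine (GalNAc) to serine or threonine. The core 1 synthase, encoded by *C1galt1*, then adds galactose to make core 1, and *C1galt1c1* encodes Cosmc, the endoplasmic reticulum chaperone that the synthase needs in order to fold. In the colon these sugars coat the mucins of the mucus layer and of the epithelial surface, and mice that lack core 1 O-glycans in the intestinal epithelium develop a thinned mucus layer and colitis. The genes described here are 8 GalNAc-transferase genes (*Galnt1*, *Galnt3*, *Galnt4*, *Galnt5*, *Galnt6*, *Galnt7*, *Galnt10* and *Galnt12*) with *C1galt1* and *C1galt1c1*. They were chosen by name, are 10 of the 15876 genes in the count table, and all passed the minimum mean count of 4.

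Their counts were compared between colonic intestinal epithelial cells (IECs) of 10 mice exposed to a social disruption stressor (Str) and 10 home cage control mice (Con). Str mice shared their cage with an aggressive male, a retired breeder, for 2 h a day over 6 days, and Con mice were left unhandled. All were conventionally raised young adult male C57BL/6NCrl mice with no genetic alteration, and the cells were taken by magnetic beads as EpCAM+ CD45- on the morning after the last exposure. The residents of a cage were exposed together and the cage of each library is not given in the sources used here, so the p-values take no account of cages. Because these are bulk samples, fewer cells of a type and less RNA per cell cannot be told apart.

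Library totals were 20390091 to 24508215 counts in Str (median 22680672), against 20034127 to 26141352 in Con (median 23676345.5). Each group held 5 libraries with the letter V and 5 with the letter L in their names, letters that are not explained. The EpCAM+ CD45- label held for its own genes. *Epcam* averaged 1369 CPM (counts scaled to the library total) in Str and 1293 CPM in Con, whereas *Ptprc*, which encodes CD45, averaged 0.905 CPM in Str and 1.16 CPM in Con. Some markers of other cells were present, as the leukocyte marker *Ly6g* averaged 75.9 CPM in Str and 28.9 CPM in Con. *Itgam*, another leukocyte marker, averaged 2.35 CPM in Str and 2.63 CPM in Con, so neither it nor *Ptprc* rose with *Ly6g*. The stromal gene *Col3a1* averaged 187 CPM in Str and 168 CPM in Con. Of 14 leukocyte markers, 11 had no row. The liver transcript *Alb* stood at 69.3 to 79.9 CPM in 4 Con libraries (CV3, CV4, CV6, CL1), against 1.64 to 3.19 CPM in the other 16, and the calls of the 10 genes and the counts of the lists were also made without these 4. Differences were tested in edgeR across the whole table, with the p-values of all genes adjusted by Benjamini-Hochberg, and a gene was called at an adjusted p under 0.05.

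In Str, 4 of the 10 genes were lower, with changes of -8.75 to -12.7%, and 0 were higher. The 4 were the chaperone gene *C1galt1c1* and the transferase genes *Galnt5*, *Galnt7* and *Galnt10*. Of all genes tested, 7.72% were called lower and 8.94% higher. Among the 3577 genes with a mean level between the lowest (51.2 CPM) and the highest (297.6 CPM) of the 10 genes, 9.34% were lower and 16.0% were higher. The median log2 fold change, Str over Con, was -0.11 for the 10 genes, against -0.0042 for all genes and 0.02 for the genes of that range. No gene of the 10 reached the thresholds of the study, an adjusted p under 1e-05 with an absolute log2 fold change over 0.5.

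**Figure D1:**
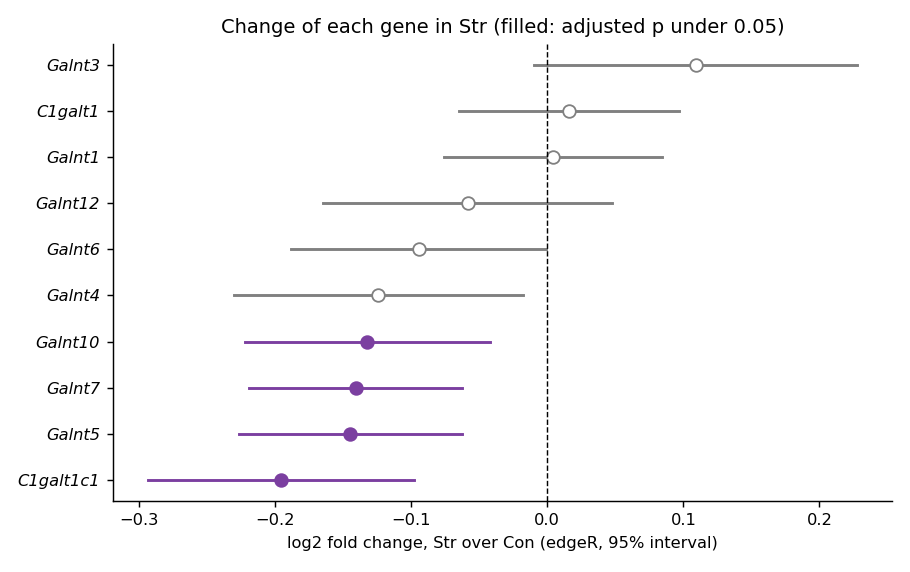
Log2 fold change of each of the 10 genes, Str over Con, by edgeR, with its 95% interval as a line (10 Str and 10 Con libraries) and a dashed line at no change. Filled points passed an adjusted p of 0.05 and lie between -0.20 (*C1galt1c1*) and -0.13 (*Galnt10*), whereas open points did not pass and lie between -0.12 (*Galnt4*) and 0.11 (*Galnt3*).

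*C1galt1c1*, the Cosmc gene, had the lowest fold change of the 10. It ranged from 53.1 to 66.0 CPM in Str (median 61.0), against 62.9 to 78.5 CPM in Con (median 68.2). Every Str library lay below the Con median and 6 lay below the lowest Con library, while 8 Con libraries lay above the highest Str library. The mean was 60.4 ± 4.44 CPM in Str and 69.2 ± 5.01 CPM in Con (SD, n = 10 each). The fold change was -0.20 ± 0.05 on the log2 scale (SE, adjusted p = 0.00656 in edgeR). This call was kept without the 4 Con libraries that hold *Alb* (-0.20, adjusted p = 0.0339 in edgeR) and in each of the 20 fits that left out 1 library. Within the V libraries the log2 fold change was -0.25 (adjusted p = 0.0273 in edgeR) and within the L libraries -0.14 (adjusted p = 0.284).

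*C1galt1*, the gene of the synthase that Cosmc serves, ran from 132 to 162 CPM in Str (median 148) and from 137 to 163 CPM in Con (median 146). The groups overlapped almost fully. Its log2 fold change was 0.02 (95% interval -0.07 to 0.10, adjusted p = 0.826 in edgeR), so a change larger than 0.10 in either direction on the log2 scale lies outside the interval. The log2 ratio of *C1galt1c1* to *C1galt1* within a library was -1.30 ± 0.14 in Str and -1.09 ± 0.14 in Con (SD, n = 10 each). All 10 Str libraries lay below the Con median of this ratio and 4 lay below its lowest Con value. The Str libraries nearest to Con were SL4 at -1.17 and SL5 at -1.18, and the Str library farthest from Con was SL2 at -1.59. Within Con, 4 of the 5 V libraries stood at -0.98 to -0.88, whereas CV4, at -1.13, stood among the L libraries at -1.25 to -1.08. With the letter added to the fit in edgeR, 0 of the 10 genes had a letter effect at an adjusted p under 0.05, against 776 of all genes.

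**Figure D2:**
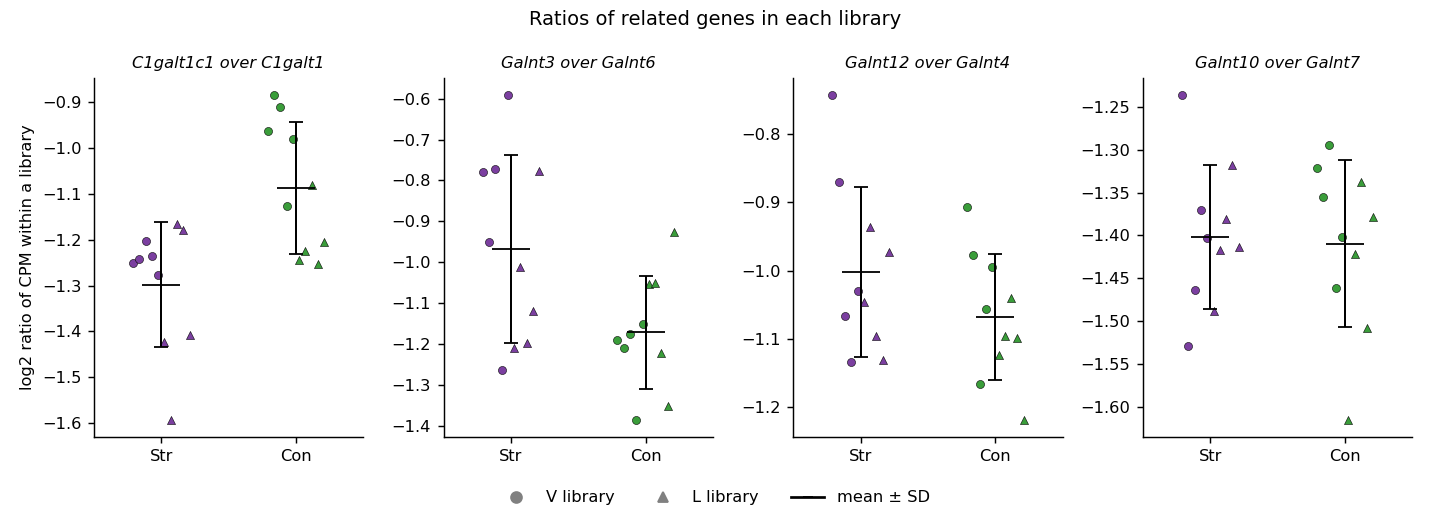
Log2 ratio of CPM within each library for 4 pairs of related genes, with Str left and Con right, V libraries as circles, L libraries as triangles and black lines for the mean and SD (n = 10 each). *C1galt1c1* over *C1galt1* averaged -1.30 in Str and -1.09 in Con, and *Galnt3* over *Galnt6* averaged -0.97 in Str and -1.17 in Con, whereas the other ratios differed by 0.07 and 0.01.

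*Galnt7* and *Galnt10* encode closely related transferases that favour peptides already carrying GalNAc and thereby fill in densely glycosylated stretches. *Galnt7* ranged from 264 to 324 CPM in Str (median 280), against 291 to 327 CPM in Con (median 314). In 8 Str libraries it was below every Con library, and SL4, the highest Str library at 324 CPM, stood among the Con values. The log2 fold change was -0.14 (SE 0.04, adjusted p = 0.0129 in edgeR), so that *Galnt7* fell by 9.29%.

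*Galnt10* ranged from 98.3 to 124 CPM in Str (median 104), against 107 to 126 CPM in Con (median 119). Here 7 Str libraries were below every Con library, and SL4 and SL5, at 124 and 120 CPM, were above the Con median. The log2 fold change was -0.13 (SE 0.04, adjusted p = 0.0397 in edgeR). This call was close to the threshold: it was lost in 13 of the 20 fits that left out 1 library, with adjusted p between 0.00709 and 0.0735 over those 20 fits in edgeR. It was kept when CV4, CL1, CL4, SV1, SV5, SL4 or SL5 was the library left out. *Galnt10* and *Galnt7* fell together, as their log2 ratio averaged -1.40 ± 0.08 in Str and -1.41 ± 0.10 in Con (SD, n = 10 each).

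*Galnt5* encodes a transferase that acts on peptides without prior sugar, and it was the least abundant of the 10 genes per kilobase of exon. It ranged from 42.8 to 53.2 CPM in Str (median 48.4), against 49.6 to 58.6 CPM in Con (median 54.1). All 10 Str libraries lay below the Con median and 8 below the lowest Con library. The log2 fold change was -0.14 (SE 0.04, adjusted p = 0.0143 in edgeR). With the 4 high *Alb* libraries left out, the log2 fold changes of *Galnt5*, *Galnt7* and *Galnt10* were -0.14, -0.13 and -0.14, now with adjusted p of 0.0624, 0.0708 and 0.0862 in edgeR, so these calls were lost while the sizes stayed. That fit called 608 genes lower, against 1226 with all libraries.

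The promoter sequences of these 3 transferase genes are shown because the genes fell together. Each is the 250 bases before the RefSeq start site on GRCm38.p6, 5′ to 3′ on the strand of the gene, with capitals for CCACG on either strand, which is the second part of the endoplasmic reticulum stress element. The windows are chr2:57997905-57998154 (plus strand) for *Galnt5*, chr8:57653056-57653305 (minus strand) for *Galnt7* and chr11:57645192-57645441 (plus strand) for *Galnt10*.
Galnt5: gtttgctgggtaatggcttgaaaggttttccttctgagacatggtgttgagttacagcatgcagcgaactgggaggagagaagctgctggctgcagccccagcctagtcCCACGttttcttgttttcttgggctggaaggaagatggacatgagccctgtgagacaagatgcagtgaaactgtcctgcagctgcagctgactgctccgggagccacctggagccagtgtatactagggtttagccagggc
Galnt7: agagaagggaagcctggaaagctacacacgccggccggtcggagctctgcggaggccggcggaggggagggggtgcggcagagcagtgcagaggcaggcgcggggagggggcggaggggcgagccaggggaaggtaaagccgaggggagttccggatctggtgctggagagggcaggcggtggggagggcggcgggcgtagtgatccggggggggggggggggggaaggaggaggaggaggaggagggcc
Galnt10: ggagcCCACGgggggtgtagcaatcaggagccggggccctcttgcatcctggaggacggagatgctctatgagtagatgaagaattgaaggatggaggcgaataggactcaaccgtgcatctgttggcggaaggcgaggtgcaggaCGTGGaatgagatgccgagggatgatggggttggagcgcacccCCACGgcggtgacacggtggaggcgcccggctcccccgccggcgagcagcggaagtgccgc
CCACG occurred 1 time in the *Galnt5* window, 3 times in that of *Galnt10* and 0 times in that of *Galnt7*, and 28.3% of 32851 RefSeq promoters hold it in the same length. It also occurred 1 time in the window of *Galnt3*, the gene with the highest fold change, and 0 times in those of *C1galt1* and *Galnt6*. GC content was 54% with 3 CG pairs for *Galnt5*, 73.6% with 19 for *Galnt7* and 64.4% with 20 for *Galnt10*, against medians of 52.4% and 6 over all promoters. GGGCGG, the box bound by Sp1, occurred 2 times in the *Galnt7* window and in neither of the other windows shown (32.7% of promoters hold it). It occurred 3 times in the window of *Galnt3*, 5 times in that of *C1galt1*, and 3 times in 1 *Galnt6* window and 0 times in the other. None of the 3 windows held, on either strand, the TATA box letters TATAAA (12.4% of promoters). The same was true of CCAAT, the first part of the stress element (33.8% of promoters), and of the STAT motif TTCNNNGAA (7.02% of promoters). *C1galt1c1* had no entry in the promoter table.

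The other 5 transferase genes did not pass the test. *Galnt4* and *Galnt12* encode further transferases that act on partly glycosylated peptides. *Galnt4* ranged from 192 to 239 CPM in Str (median 203), against 189 to 255 CPM in Con (median 234). In Str, 9 of 10 libraries were below the Con median, but the Con library CV4 was lower than all of Str. The log2 fold change was -0.12 (95% interval -0.23 to -0.02, adjusted p = 0.101 in edgeR), and without CV4 or without SL5 it passed (lowest adjusted p = 0.0283). *Galnt12* ranged from 91.7 to 121 CPM in Str and from 90.9 to 124 CPM in Con, a log2 fold change of -0.06 (95% interval -0.17 to 0.05, adjusted p = 0.476 in edgeR).

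*Galnt3* and *Galnt6* are close relatives in sequence, and they lay on opposite sides of no change. *Galnt6* ranged from 176 to 229 CPM in Str (median 203), against 201 to 230 CPM in Con (median 212), and 4 Str libraries lay below every Con library. Its log2 fold change was -0.09 (95% interval -0.19 to -0.00058, adjusted p = 0.162 in edgeR). *Galnt3*, known for glycosylating the phosphate hormone FGF23, ranged from 84.7 to 118 CPM in Str (median 103), against 81.3 to 106 CPM in Con (median 96.7). It had the highest fold change of the 10 genes, 0.11 on the log2 scale (95% interval -0.01 to 0.23, adjusted p = 0.206 in edgeR), with 5 Str libraries above every Con library. The log2 ratio of *Galnt3* to *Galnt6* was -0.97 ± 0.23 in Str and -1.17 ± 0.14 in Con (SD, n = 10 each), and 4 Str libraries exceeded the highest Con ratio. Within the V libraries the log2 fold changes were 0.17 for *Galnt3* and -0.19 for *Galnt6*. Within the L libraries they were 0.04 and -0.01, and none of these passed in edgeR.

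*Galnt1*, a broadly expressed transferase gene, was the least changed. It ranged from 113 to 138 CPM in Str (median 121) and from 111 to 129 CPM in Con (median 122), a log2 fold change of 0.0041 (95% interval -0.08 to 0.08, adjusted p = 0.957 in edgeR). *Galnt1* and *C1galt1* were also among the steadiest genes of the table, as the variance of log2 CPM over the 20 libraries was at the 4.78 and 5.13 percentile of all genes. Summed over the 8 transferase genes, the level was 1179 ± 44.4 CPM in Str (1124 to 1256) and 1252 ± 40.9 CPM in Con (1179 to 1309; SD, n = 10 each). Every Str library was below the Con median of this sum and 6 were below the lowest Con library, CV4.

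**Figure D3:**
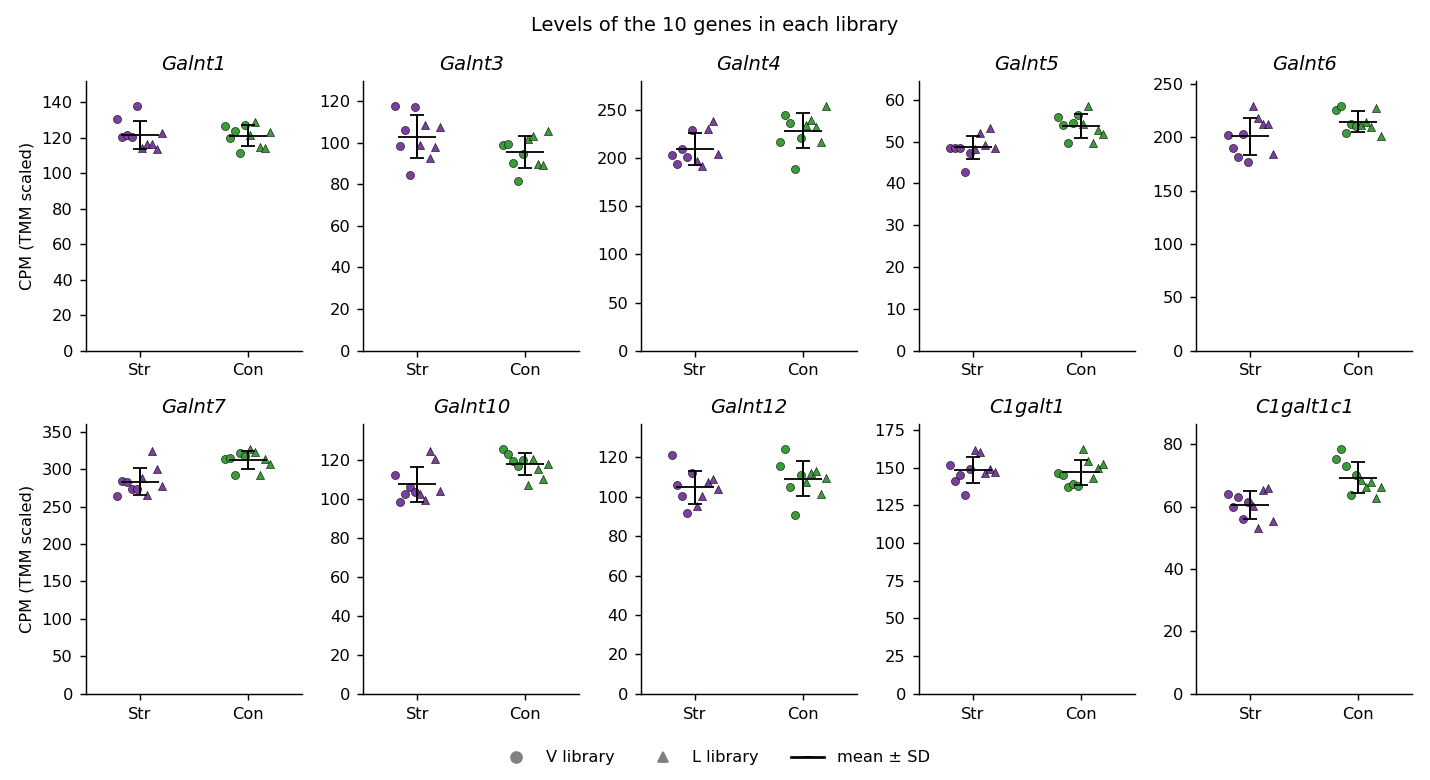
CPM of the 10 genes in each library, scaled by TMM factors, on linear axes from 0, with Str left and Con right, V libraries as circles, L libraries as triangles and black lines for the mean and SD (n = 10 each). The shifts are small beside the levels: *Galnt7* averaged 283 CPM in Str and 312 CPM in Con, and *C1galt1c1* averaged 60.4 CPM in Str and 69.2 CPM in Con.

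Compared per kilobase of exon, *Galnt7* was the most abundant of the 10 genes, at 53.9 ± 3.42 CPM per kb in Str and 59.4 ± 2.29 in Con (SD, n = 10 each). *Galnt6* followed at 51.9 ± 4.49 in Str and 55.4 ± 2.51 in Con, a gap to *Galnt7* smaller than the SD of either gene in Str and larger than that of either gene in Con. *Galnt12*, *C1galt1c1* and *Galnt4* came next, at 45.8, 41.7 and 41.2 CPM per kb in Str and 47.7, 47.8 and 44.9 in Con. The order of *Galnt12* and *C1galt1c1* thus turned between the groups, with differences in Con far under the SD of either. *C1galt1*, *Galnt3* and *Galnt1* formed a lower group at 24.4, 23.5 and 22.0 CPM per kb in Str and 24.1, 21.8 and 22.0 in Con. *Galnt10* stood at 18.0 in Str and 19.7 in Con, and *Galnt5* was the lowest at 10.9 in Str and 12.1 in Con. On this scale the synthase gene was less abundant than its chaperone gene in both groups. The lengths take all exons of a gene in GENCODE M21, whereas the authors counted on the annotation from NCBI. The order of the genes therefore depends on these lengths.

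Read assignment limits a few of these levels. *Galnt4* shares 420 exonic bases (8.25%) with *Poc1b* on the same strand, *Galnt6* shares 441 (11.4%) with its antisense gene *Galnt6os*, and *Galnt5* shares 237 (5.31%) with *Ermn* on the opposite strand. The libraries were directional, but the strand setting of the counting is not given in the sources used here. No run of 50 bases in the transcripts of 1 of the 10 genes was shared with another of the 10, and *C1galt1c1*, *C1galt1*, *Galnt3*, *Galnt10* and *Galnt12* shared none with any other gene.

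Among the Str mice, SL4 and SL5 lay closest to Con over the genes that fell, and not for these genes alone. SL4 was also the lowest Str library for *B3galt5* (634 CPM), *Fut2* (90.1 CPM) and *Muc13* (2240 CPM), and the genes called lower in all numbered 1494 without SL4 and 1605 without SL5, against 1226 with all libraries. Averaged over *C1galt1c1*, *Galnt5*, *Galnt7* and *Galnt10*, they differed from the Con mean by -0.02 each on the log2 scale, while the other 8 Str libraries differed by -0.14 to -0.24. In those 8 libraries all 4 genes were below the Con median, but *Galnt5* in SL4, at 49.2 CPM, was below every Con library too. The 3 Con libraries CL3, CL4 and CL6 also had all 4 below the Con median, with mean differences of -0.07, -0.06 and -0.03. The test of whether the effect of Str differed between V and L libraries passed for 0 of the 10 genes and for 0% of all genes in edgeR, where 918 genes had an unadjusted p under 0.05. The lowest adjusted p of the 10 genes in that test was 0.86, for *Galnt6*.

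**Figure D4:**
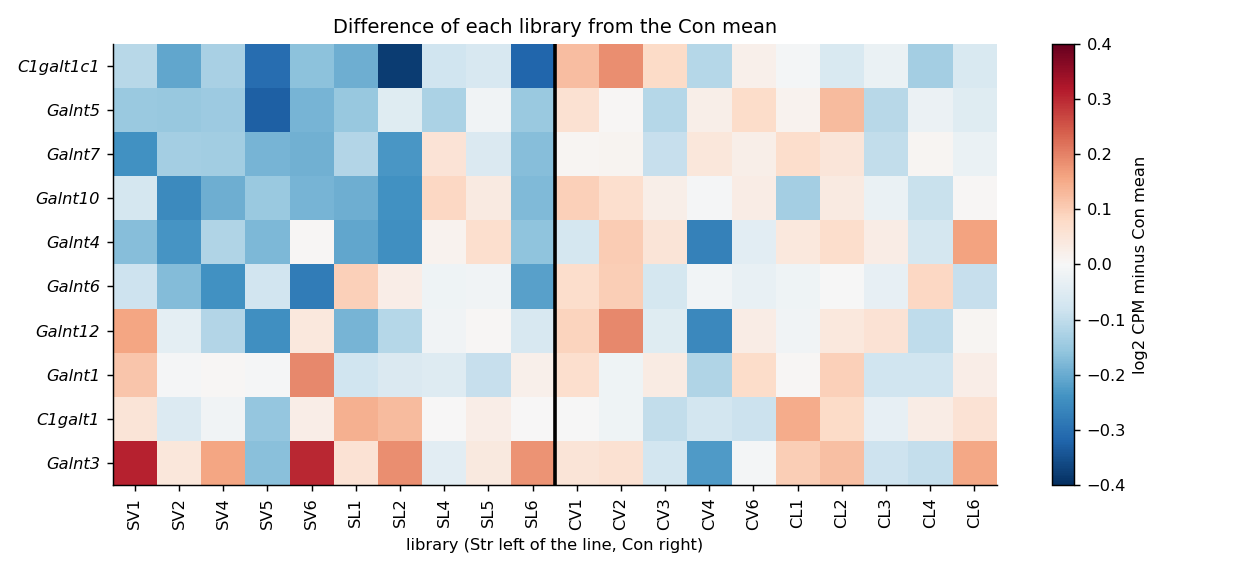
Log2 CPM of each gene (down the page) in each library (across, Str left of the line and Con right of it) minus the mean of Con, where blue is below and red is above that mean. *C1galt1c1*, *Galnt5*, *Galnt7* and *Galnt10* are all blue in 8 Str libraries, whereas *Galnt10* is red in SL4 and SL5 and *Galnt7* is red in SL4.

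The remaining deviations of *C1galt1c1* within the groups were most like those of *Ccs* (Pearson r = 0.84), the copper chaperone of superoxide dismutase, *Cox4i1* (0.84), a subunit of cytochrome c oxidase, and *Agpat9* (0.83), an acyltransferase of glycerolipid synthesis. These r are the highest of 13515 genes with a mean of at least 1 CPM, on log2 CPM over the 20 libraries after subtraction of the group means, and they are given as a description. Among the 10 genes, r was highest for *Galnt1* and *Galnt3* (0.68), and it was -0.10 for *C1galt1* and *C1galt1c1*.

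The rest of the pathway was described by lists. Of 12 further GalNAc-transferase genes 6 had a row, and 0 passed the test in edgeR in either direction (median log2 fold change -0.09), while 3 had an unadjusted p under 0.05. DESeq2 called 1 higher, limma-voom 1 higher and 1 lower, library sizes alone 2 lower, and the fit without the 4 high *Alb* libraries 1 higher. *Galnt2*, a broadly acting transferase gene, had a log2 fold change of -0.09 (adjusted p = 0.137 in edgeR), and the smallest adjusted p was that of *Galnt18*, at 0.40 on the log2 scale (adjusted p = 0.054 in edgeR). The 15 genes that supply UDP-GalNAc and UDP-galactose, the sugar donors of these enzymes, and related transporters had 6 lower and 0 higher (median -0.10). They included *Slc35a1*, the CMP-sialic acid transporter of the Golgi (-0.22, adjusted p = 0.000996 in edgeR), *Galm*, which interconverts the forms of galactose (-0.22, adjusted p = 0.00396), and *Ugp2*, which makes UDP-glucose (-0.17, adjusted p = 0.0102). *Galk1*, *Pgm3* and *Uap1* were the other 3 that fell, with log2 fold changes of -0.36, -0.10 and -0.13. Without the 4 high *Alb* libraries 3 of this list were lower.

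Among the other enzymes that act after initiation, several rose. Of 12 core and branching genes 6 rose and 1 fell (median 0.15). *B3galt5*, a galactosyltransferase of chain extension, averaged 1134 ± 274 CPM in Str and 569 ± 64.3 CPM in Con (SD, n = 10 each). Its change was 1.00 ± 0.12 on the log2 scale (SE, adjusted p = 1.3e-05 in edgeR). *B3gnt3*, the core 1 extension enzyme, rose by 0.32 and *B3gnt7* by 0.40 (adjusted p = 0.000461 and 0.0054 in edgeR), and *B3gnt3* was higher in all 10 Str libraries than in any Con library. *Gcnt2*, *B4galt1* and *B4galt5* also rose, and *B4galt4*, a galactosyltransferase, fell by 0.15. Some genes that form or branch the cores lay on the lower side without passing in edgeR. Their log2 fold changes were -0.53 for *B3gnt6*, the core 3 synthase (adjusted p = 0.055 in edgeR), -0.44 for *Gcnt3* (adjusted p = 0.0585) and -0.49 for *Gcnt4* (adjusted p = 0.137). *Gcnt1*, of the same family, lay on the higher side at 0.11 (adjusted p = 0.6 in edgeR), and *Gcnt2* had risen. The count of lower genes in this list was 2 with DESeq2, 3 with limma-voom, 3 with library sizes alone and 0 without the 4 high *Alb* libraries, while the higher genes numbered 5 or 6. The 16 measured capping genes had 2 higher and 1 lower (median 0.01). *Fut2*, which adds the terminal fucose of the H antigen, rose by 1.04 and *St3gal4*, a sialyltransferase, by 0.29, while *St6galnac2*, which adds sialic acid to the core GalNAc, fell by 0.31.

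Of 12 measured mucins and other O-glycosylated proteins, 4 rose and 1 fell (median 0.17). The membrane mucin genes *Muc1* (0.85), *Muc13* (0.79), *Muc3* (0.35) and *Muc4* (0.24) rose, and *Cd24a*, a small surface mucin-like protein, fell by 0.24. Without the 4 high *Alb* libraries 2 of these genes were higher and 1 was lower. *Muc2*, the gel forming mucin of goblet cells, had a log2 fold change of -0.10 (adjusted p = 0.55 in edgeR). Some genes of these lists, *Fut2*, *Muc1* and *Muc13* among them, were picked from these samples by the study, so the counts are not independent evidence of direction. The 18 measured genes that start other kinds of protein glycosylation had 1 higher and 0 lower (median -0.05), the 1 being *Dpagt1*, which starts N-glycan assembly (0.40).

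**Figure D5:**
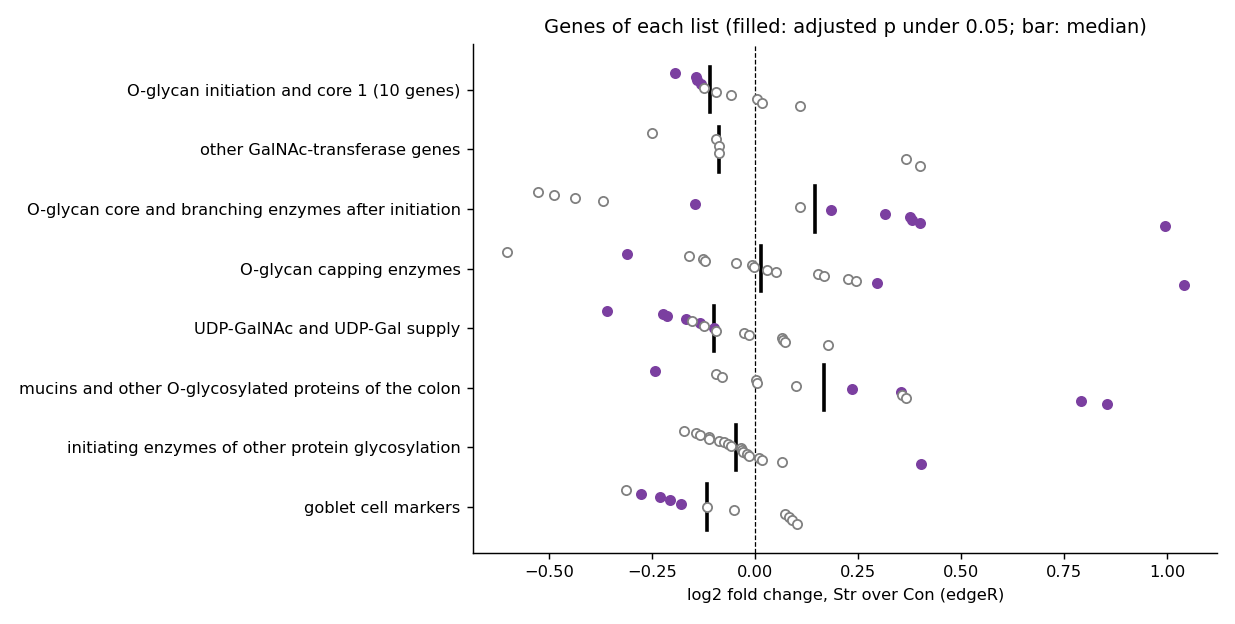
Log2 fold change, Str over Con, of the genes of 8 lists by edgeR, with filled points for an adjusted p under 0.05 and a black bar for the median of each list. The medians are -0.11 for the 10 genes of initiation and core 1, -0.10 for sugar donor supply, 0.15 for core and branching enzymes and 0.17 for mucins.

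Some goblet cell markers were also lower in Str. Of 11 measured markers 4 were lower in Str and 0 higher (median -0.12), namely *Agr2*, a protein disulfide isomerase of mucin folding (-0.28), *Bcas1* (-0.23), *Klk1* (-0.21) and *Ern2*, a sensor of endoplasmic reticulum stress (-0.18). The other 7 did not pass, with *Clca1* at -0.31, *Atoh1* at -0.12 and *Foxa3* at -0.05 and with *Tff3* (0.10), *Creb3l1* (0.09), *Zg16* (0.08) and *Spink4* (0.07) above no change. Without the 4 high *Alb* libraries 1 marker was lower. The summed level of the list was 4682 to 7016 CPM in Str (median 5374) and 5184 to 8687 CPM in Con (median 5730), which overlapped. The study counted goblet cells in colon sections and reported that neither their total number nor their density in a crypt changed with Str. The part of goblet cells in the fall of *C1galt1c1*, *Galnt5*, *Galnt7* and *Galnt10* was not tested. Among markers of other cells, 3 of 8 absorptive genes were higher and 2 lower, 1 of 7 epithelial, 1 of 7 crypt and 1 of 3 leukocyte genes (*Ly6g*) were higher, and 0 of 7 enteroendocrine and tuft and 0 of 8 stromal genes passed. Of 5 liver and serum protein genes 3 were lower in Str. All 5 together summed to 41.7 to 67.3 CPM in Str and 52.7 to 171 CPM in Con.

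The calls depended on the scaling of the libraries in number but not in direction. With library sizes alone in place of TMM factors, 6 of the 10 genes were lower, the added genes being *Galnt4* and *Galnt6*, and 0 were higher, while 12.3% of all genes were called lower and 6.49% higher. That scaling moved the share of calls that were higher to 34.6%, against 53.7% with TMM factors, and it moved the median of all genes to -0.05. In the L libraries alone none of the 10 genes was called, where edgeR called 2 genes lower and 9 higher in the whole table, and the 4 values were -0.14 for *C1galt1c1*, -0.09 for *Galnt5*, -0.10 for *Galnt7* and -0.05 for *Galnt10*. In the V libraries alone all 4 were called, at -0.25, -0.20, -0.18 and -0.21, where edgeR called 817 genes lower in the whole table.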

How the data were processed

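RNA sequencing of EpCAM+ CD45- colonic IECs from 10 Str and 10 Con mice was used, 1 library per mouse. The authors depleted ribosomal RNA, made directional libraries, mapped the reads to GRCm38.p4 by STAR and counted them per gene by HTSeq, and the values used are the deposited counts per gene, with no scaling. The submitters' processing notes also name DESeq2. Another 20 columns of scaled per-sample values were not used. Columns were assigned to a group by the first letter of their name and are not tied to a numbered mouse.

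The comparison of Str with Con used glmQLFTest of edgeR 4.0.16 under R 4.3.3, scaled by TMM. All 15876 genes had a mean count above 4 and entered the Benjamini-Hochberg adjustment. CPM used TMM scaled library sizes and log2 CPM a prior count of 2. Intervals are 95% intervals of the fit. Exon lengths and overlaps came from GENCODE M21 on GRCm38, and promoters from RefSeq for 6 of the 10 genes. The genes and lists were chosen with earlier results of these data known. Besides the 10 genes, the text names of each pathway list the called genes with the 3 smallest adjusted p, all calls where 5 or fewer, and the 3 genes most correlated with the called gene of largest fold change. Other genes were named after their values were seen.

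Alternatives were DESeq2 1.42.0, limma-voom 3.58.1 with quality weights, library sizes alone, RLE size factors, filterByExpr, no low count filter, removal of the 15% of genes of least variance, the letter as a covariate, V or L libraries alone, a block by column name, the thresholds of the study and each library left out. The fit without 4 Con libraries, for genes and lists, was added after the data were seen. The fit was tested on simulated counts.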

Additional observations from a re-analysis of the deposited data

How the results depend on the processing

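No gene of the 10 was called higher under any alternative run. The number called lower, 4 with all libraries, was 2 without the 15% of genes of least variance, where *Galnt1*, *Galnt7* and *C1galt1* were not tested and *Galnt10* had an adjusted p of 0.0661 in edgeR. It was 0 in the L libraries alone, 1 without the 4 Con libraries that hold *Alb*, a fit chosen after seeing the data, and 0 at the thresholds of the study. It was 5 with limma-voom, 6 with library sizes alone and 4 with DESeq2, RLE size factors, no low count filter, filterByExpr, the letter as a covariate and the V libraries alone. The fit with no low count filter repeats the main fit, since every gene passed that filter. The genes called lower in the whole table numbered 1226 in the main fit, 1697 with limma-voom, 1949 with library sizes alone and 1338 with DESeq2. They numbered 1147 with RLE size factors, 1185 with filterByExpr, 1412 with the letter, 817 in the V libraries and 1093 without the genes of least variance. Leaving out each library in turn gave 3 to 5 of the 10 genes, against 902 to 1605 of all genes. *C1galt1c1*, *Galnt5* and *Galnt7* were called in all 20 of those fits. Counts of several lists also moved with the fit, and only some of these moves are given beside them. Of the genes that start other glycosylation, 3 were lower with library sizes alone, against 0 in the main fit. Of the absorptive genes, 1 was higher without the 4 Con libraries that hold *Alb*, against 3 in the main fit.

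The sign of *Galnt1* turned with limma-voom (-0.0018), library sizes alone (-0.039) and the L libraries alone (-0.046), and over the fits that left out 1 library its log2 fold change ranged from -0.018 to 0.015. The sign of *C1galt1* turned with library sizes alone (-0.027).

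A replicate block by the letter and number of the column names, shared by 8 pairs, called 3 genes lower, since *Galnt10* had -0.15 (adjusted p = 0.0545 in edgeR). Deviations of libraries with the same name correlated at 0.02 to 0.44, and 2 of 8 correlated best with their own name. The meaning of the number is not given, so these values cannot tell whether libraries of the same name were paired.

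Each of the 10 genes had 1003 to 7993 counts per library, and the SE of its log2 fold change was 0.04 to 0.06. Cages and the meaning of V and L are not given in the sources used here.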
